A study of Mus musculus with 12 samples.

Results

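The genes described here are 8 Toll-like receptors (Tlr1, Tlr2, Tlr4, Tlr6, Tlr7, Tlr8, Tlr9 and Tlr13) and 2 co-receptors (Cd14 and Ly96), taken by symbol from the 47643 genes of the count table, which gave 10 rows for the 10 names. They were measured by bulk RNA-seq. in 12 libraries, 4 for each of 3 groups. Monocytes grown from the bone marrow (BMMs) of WT mice of the BALB/c strain were turned into osteoclasts with M-CSF and RANKL, the cytokines that drive this differentiation, and harvested on day 3, and all groups shared this strain, genotype, culture and harvest. OCsCtr received no further stimulus. OCsEo received sorted eosinophils from IL-5tg/4get mice, in which an IL-5 transgene raises eosinophil numbers, at 2 eosinophils per BMM, and OCsEoS received the supernatant of eosinophils at a 1:2 dilution. Both stimuli were given on day 0 for 48 h, then removed by washing, so the libraries of day 3 were made after the stimulus had been taken away. The eosinophils had been sorted from pooled blood and bone marrow. Total counts ranged from 27837530 to 40327869 per library. The osteoclast markers were abundant in every library, with a summed level of the 9 markers (Acp5, Ctsk, Mmp9, Calcr, Dcstamp, Ocstamp, Atp6v0d2, Itgb3 and Oscar) of 14669 to 34116 counts per 1000000 counts (CPM, after TMM scaling of the libraries). All 10 marker genes of the monocyte/macrophage lineage were also present above 1 CPM on average in each group.

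Toll-like receptors are transmembrane proteins with an outer leucine-rich domain that binds microbial molecules and an inner TIR domain that recruits adaptors. At the plasma membrane, Tlr2 pairs with Tlr1 or Tlr6 and binds lipopeptides, while Tlr4 binds lipopolysaccharide through Ly96 (MD-2), with Cd14 handing over the ligand. Tlr7, Tlr8, Tlr9 and Tlr13 sit in endosomes and sense nucleic acids, among them single-stranded RNA (Tlr7), unmethylated CpG DNA (Tlr9) and bacterial ribosomal RNA (Tlr13). Osteoclasts stem from the monocyte/macrophage lineage, whose precursors express many of these receptors, and Toll-like receptor ligands are known to act on osteoclast formation.

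In the count table the members lie apart from each other on GRCm38, except for a pair on chromosome 5 (Tlr1 and Tlr6) and a pair on chromosome X (Tlr8 and Tlr7). The other surface receptors are Tlr2 at chr3:83836272-83841767 (minus strand) and Tlr4 at chr4:66827584-66930284 (plus strand). The endosomal receptors are Tlr7 at chrX:167304929-167330558 (minus strand), Tlr8 at chrX:167242696-167264329 (minus strand), Tlr9 at chr9:106222598-106226883 (plus strand) and Tlr13 at chrX:106143204-106160493 (plus strand). The co-receptors are Cd14 at chr18:36725074-36726736 (minus strand) and Ly96 at chr1:16688051-16709611 (plus strand). No member overlaps another annotated gene.

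A gene was called when edgeR's quasi-likelihood test over all 13681 tested genes gave a Benjamini-Hochberg adjusted p under 0.05 and the log2 fold change was above 0.5 in size. All 10 members passed the filter on low counts. In OCsEo against OCsCtr, 2 of the 10 members, Cd14 and Tlr13, were called higher and 0 lower, where 3.27% of all tested genes were called higher. The same 2 members were called higher in OCsEoS against OCsCtr, where the background was 3.63%, and again 0 were called lower. Both comparisons used the same 4 OCsCtr libraries. The remaining 8 members were not called in either comparison by edgeR or DESeq2. At an unadjusted p under 0.05, 3 members passed in OCsEo (Cd14, Tlr13 and Tlr4) and 3 in OCsEoS (Cd14, Tlr13 and Tlr2). In OCsEoS against OCsEo, 0 of 10 members were called by edgeR and 0 by DESeq2, beside 0.38% of all tested genes called in either direction, and 1 member, Tlr9, passed an unadjusted p under 0.05. Because these are bulk samples, fewer cells of a type and less RNA per cell cannot be told apart in any of these values.

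**Figure D1:**
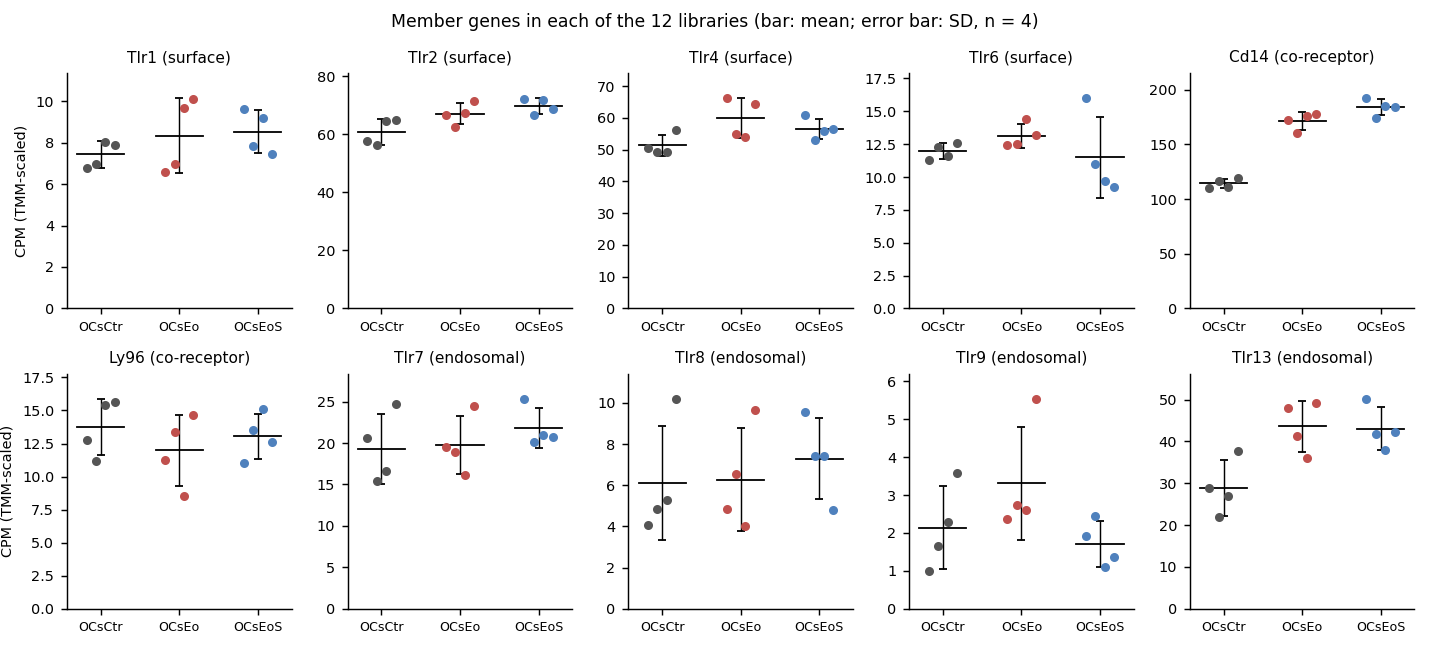
CPM (TMM-scaled, axes from 0) of the 10 members in each of the 12 libraries, with 1 point per library in replicate order, the mean as a bar and the SD as an error bar (n = 4 per group). The 4 OCsCtr libraries of Cd14 lie between 110 and 119 CPM and all 8 libraries of the stimulated groups lie above 160 CPM.

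Among the co-receptors, Cd14 had the clearest separation. Cd14, a protein anchored in the membrane that captures lipopolysaccharide and other ligands for Tlr4 and Tlr2, stood at 110, 116, 112 and 119 CPM in the 4 OCsCtr libraries. The 4 OCsEo libraries had 173, 160.1, 176 and 178 CPM. The 4 OCsEoS libraries had 192, 174, 186 and 184 CPM. Every stimulated library was thus above every unstimulated one. Such full separation from OCsCtr held for 10.5% of all tested genes in OCsEo and for 12.6% in OCsEoS. The mean rose from 114 ± 3.99 CPM in OCsCtr to 172 ± 7.89 CPM in OCsEo (SD, n = 4), a log2 fold change of 0.58 (SE 0.058, adjusted p = 1.5e-06 by edgeR), which is 1.5-fold. In OCsEoS it was 184 ± 7.38 CPM (SD, n = 4), a log2 fold change of 0.69 (SE 0.0581, adjusted p = 4.6e-07 by edgeR), or 1.61-fold. Between the 2 stimulated groups the difference was 0.10 on the log2 scale (95% interval -0.02 to 0.22, adjusted p = 0.54 by edgeR), so it was not resolved from the spread between replicates. When a trend of fold change with gene length was taken out, the OCsEo value became 0.49, just under the fold threshold of 0.5, with an adjusted p of 8e-06 by edgeR, while the OCsEoS value became 0.57 and remained called.

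Ly96, the small secreted protein that binds lipopolysaccharide within the Tlr4 complex, was not called. Its levels were 12.8, 11.2, 15.4 and 15.6 CPM in OCsCtr, 11.3, 13.4, 8.56 and 14.7 CPM in OCsEo, and 11.03, 13.5, 15.1 and 12.6 CPM in OCsEoS. The 3 groups overlapped throughout. Its log2 fold change was -0.20 in OCsEo (95% interval -0.54 to 0.14) and -0.07 in OCsEoS (95% interval -0.41 to 0.26), so falls or rises of moderate size are within these intervals.

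The 4 surface receptors were close to OCsCtr in both stimulations. Of Tlr1, Tlr2, Tlr4 and Tlr6, 0 were called in either comparison with OCsCtr by edgeR or DESeq2, and in each comparison 1 passed an unadjusted p under 0.05. Tlr2, the shared partner of Tlr1 and Tlr6, had 57.7, 56.2, 64.45 and 64.9 CPM in OCsCtr. It had 66.7, 62.5, 67.4 and 71.5 CPM in OCsEo, of which 3 were above all OCsCtr libraries. In OCsEoS it had 72.0, 66.5, 71.6 and 68.5 CPM, all above every OCsCtr library, as for 12.6% of all tested genes. The log2 fold change of Tlr2 was 0.14 in OCsEo (95% interval -0.01 to 0.29, adjusted p = 0.20 by edgeR) and 0.20 in OCsEoS (95% interval 0.05 to 0.34, adjusted p = 0.052 by edgeR). Both intervals stay below the fold threshold of 0.5.

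Tlr4, the lipopolysaccharide receptor, had 50.6, 49.4, 49.2 and 56.3 CPM in OCsCtr. OCsEo libraries had 66.1, 55.0, 54.04 and 64.3 CPM. OCsEoS libraries had 60.8, 53.1, 55.8 and 56.6 CPM. The ranges overlapped with OCsCtr in both stimulated groups. The log2 fold change was 0.22 in OCsEo (95% interval 0.05 to 0.39, adjusted p = 0.070 by edgeR) and 0.14 in OCsEoS (95% interval -0.03 to 0.31, adjusted p = 0.25 by edgeR). For Tlr4, too, the intervals lie under the fold threshold.

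Tlr1 and Tlr6 were lower in abundance. Tlr1 averaged 7.43 ± 0.633 CPM in OCsCtr, 8.32 ± 1.81 CPM in OCsEo and 8.53 ± 1.04 CPM in OCsEoS (SD, n = 4 each). The OCsEo libraries of Tlr1 fell into a lower and a higher pair, with 6.57 and 6.97 CPM in replicates 1 and 2, and 9.66 and 10.1 CPM in replicates 3 and 4. Tlr6 averaged 11.95 ± 0.609 CPM in OCsCtr, 13.1 ± 0.92 CPM in OCsEo and 11.5 ± 3.08 CPM in OCsEoS (SD, n = 4 each). The wide spread of Tlr6 in OCsEoS came from replicate 1 at 15.98 CPM, beside 11.03, 9.74 and 9.24 CPM in the other three. Log2 fold changes of Tlr1 were 0.16 (95% interval -0.18 to 0.51) in OCsEo and 0.20 (95% interval -0.15 to 0.54) in OCsEoS. For Tlr6 they were 0.14 (95% interval -0.18 to 0.45) and -0.06 (95% interval -0.37 to 0.26).

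Reads of Tlr1 and Tlr6 can be hard to tell apart, because these neighbouring genes of the minus strand of chromosome 5 (GRCm38, Tlr1 at chr5:64924679-64933563 and Tlr6 at chr5:64952031-64960097) share sequence. Of the 50-base windows of the Tlr1 transcripts, 15.4% occurred exactly in another gene (for the most part in Tlr6), and of those of Tlr6, 12.3% (for the most part in Tlr1). The other 8 members had 0% of such windows, except Tlr4 with 0.216%. The coding sequences were 58.7% identical over the first part of Tlr1 (coding bases 1 to 1192) and 90.8% identical over the rest (coding bases 1193 to 2385), where the longest identical run was 229 bases. The following 120 coding bases were read from the GENCODE transcripts (GRCm38, minus strand, 5′ to 3′, Tlr1 at chr5:64925826-64925945 and Tlr6 at chr5:64954117-64954236). They are shown as an example from within the shared stretch, are 97.5% identical and do not include the less similar sequence before it. The capitals mark the 3 bases that differ.
Tlr1: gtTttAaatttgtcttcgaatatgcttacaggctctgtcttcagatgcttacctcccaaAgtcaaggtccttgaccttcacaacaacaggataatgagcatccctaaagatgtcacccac
Tlr6: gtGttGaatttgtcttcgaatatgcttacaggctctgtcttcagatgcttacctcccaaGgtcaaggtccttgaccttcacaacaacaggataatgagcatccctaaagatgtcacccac
How reads that match both genes were assigned is not given in the sources used here, so the split of counts between Tlr1 and Tlr6 is uncertain, while most windows were particular to 1 gene.

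The endosomal receptors differed among themselves. Of Tlr7, Tlr8, Tlr9 and Tlr13, 1 was called higher in each stimulation, Tlr13 both times, and 0 lower. Tlr13, which recognises bacterial ribosomal RNA, had 28.8, 21.9, 27.0 and 37.8 CPM in OCsCtr. In OCsEo it had 48.0, 41.2, 36.0 and 49.2 CPM. In OCsEoS it had 50.2, 41.7, 38.1 and 42.2 CPM. Replicate 4 of OCsCtr was the highest unstimulated library and lay above OCsEo replicate 3, so OCsEo overlapped with OCsCtr in 1 library. All OCsEoS libraries lay above OCsCtr, as for 12.6% of all tested genes. The mean rose from 28.9 ± 6.6 CPM to 43.6 ± 6.16 CPM in OCsEo (SD, n = 4), a log2 fold change of 0.59 (SE 0.136, adjusted p = 0.0045 by edgeR), or 1.51-fold. In OCsEoS it was 43.0 ± 5.11 CPM (SD, n = 4), a log2 fold change of 0.58 (SE 0.136, adjusted p = 0.0043 by edgeR), or 1.49-fold. Without OCsCtr replicate 2, the lowest of the unstimulated libraries, the values were 0.49 (adjusted p = 0.018) in OCsEo and 0.47 (adjusted p = 0.017) in OCsEoS by edgeR, both below the fold threshold. Over the 12 fits with 1 library left out, the log2 fold change of Tlr13 ranged from 0.49 to 0.75 in OCsEo and from 0.47 to 0.73 in OCsEoS. The difference of OCsEoS to OCsEo was -0.02 (95% interval -0.30 to 0.26), and for the members other than Cd14, Tlr13 and Tlr9 it lay between -0.20 (Tlr6) and 0.22 (Tlr8).

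Tlr13 lies on the plus strand of chromosome X (GRCm38, chrX:106143204-106160493). The 179 bases before its annotated start (GRCm38.p6, chrX:106143025-106143203, plus strand, 5′ to 3′), from the RefSeq promoter table cut at the GENCODE start, are shown because Tlr13 was the one endosomal member called, and the capitals mark the core motif GAGGAA of PU.1, a myeloid transcription factor.
Tlr13: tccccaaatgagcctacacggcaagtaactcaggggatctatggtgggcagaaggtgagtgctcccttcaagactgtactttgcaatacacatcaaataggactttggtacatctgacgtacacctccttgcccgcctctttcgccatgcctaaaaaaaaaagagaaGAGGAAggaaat
Searched on both strands of the 250 bases before a start, GAGGAA was found in 23.3% of 32851 promoters, and, among the 6 members with a promoter in the table, in Tlr1, Tlr8, Tlr9 and Tlr13. The AP-1 motif TGANTCA was present in 6.75% of promoters and in Tlr9 among the members. The C/EBP motif TTGCNNAA was present in 9.56% of promoters and in Tlr6 and Tlr8. The Tlr6 match lay before a RefSeq start within the GENCODE gene, and the Tlr6 promoter before the GENCODE start held 0 motif matches. These are matches of letters, which do not say whether a factor binds, and the motif of Tlr13 is shared with 3 members that were not called.

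Tlr7, a receptor for single-stranded RNA, is the endosomal member closest to Tlr13 in level. Its libraries had 20.6, 15.4, 16.6 and 24.7 CPM in OCsCtr, 19.5, 18.9, 16.15 and 24.5 CPM in OCsEo, and 25.3, 20.1, 20.96 and 20.7 CPM in OCsEoS. The groups overlapped, and the log2 fold changes were 0.03 in OCsEo (95% interval -0.28 to 0.34) and 0.17 in OCsEoS (95% interval -0.13 to 0.48), neither called. Tlr8, which lies next to Tlr7 on the minus strand of chromosome X, averaged 6.1 ± 2.78 CPM in OCsCtr, 6.27 ± 2.5 CPM in OCsEo and 7.295 ± 1.95 CPM in OCsEoS (SD, n = 4 each). Its intervals of the log2 fold change, -0.57 to 0.64 in OCsEo and -0.35 to 0.86 in OCsEoS, reach past the threshold on the upper side in both, so a change of that size could not be detected or set aside here.

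Tlr9, the receptor for CpG DNA, was the least abundant member. It was counted with 29, 56, 78 and 115 reads in the OCsCtr libraries, which is 1.01, 1.66, 2.3 and 3.58 CPM. OCsEo had 2.36, 2.74, 2.615 and 5.54 CPM, with replicate 4 well above the other three. OCsEoS had 1.92, 2.46, 1.1 and 1.37 CPM. The point estimates of Tlr9 were among the largest of the members but were not resolved: 0.63 in OCsEo (95% interval -0.17 to 1.42, adjusted p = 0.30 by edgeR), -0.32 in OCsEoS (95% interval -1.13 to 0.49, adjusted p = 0.62 by edgeR), and -0.95 in OCsEoS against OCsEo (95% interval -1.75 to -0.14, adjusted p = 0.35 by edgeR). At this depth, changes of Tlr8 and Tlr9 would have to be larger than those of Cd14 or Tlr13 to be told from replicate spread. The coefficients of variation between replicates were 26.7% to 45.6% for Tlr8 and 35.3% to 51.3% for Tlr9. They were 11.9% to 22.8% for Tlr13 and 3.49% to 4.6% for Cd14.

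**Figure D2:**
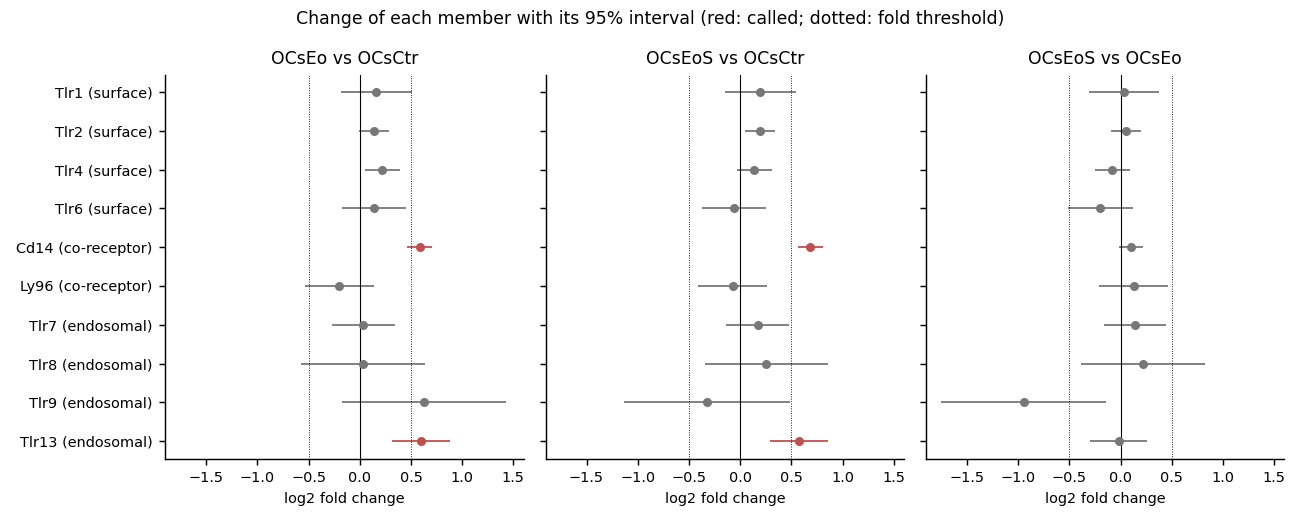
Log2 fold change (x axis) of each member in the 3 comparisons, with its 95% interval from the edgeR fit. Called members are red and the dotted lines stand at -0.5 and 0.5. Cd14 and Tlr13 are called in both comparisons with OCsCtr, and the intervals of Tlr8 and Tlr9 are the widest.

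Surface and endosomal receptors were set side by side by their medians, as a description with no test. In OCsEo, the median log2 fold change was 0.15 over the 4 surface receptors and 0.31 over the 4 endosomal receptors, where the median of all tested genes was -0.01. In OCsEoS, the medians were 0.17 and 0.21, with -0.01 over all tested genes. Tlr3, an endosomal receptor outside the members with log2 fold changes of 1.02 in OCsEo and 0.51 in OCsEoS, was not part of these medians. The differences of the medians, surface minus endosomal, were -0.16 and -0.05, less than the SD of the same quantity between replicate libraries (0.33 and 0.29). Leaving out OCsEo replicate 4 turned the first difference to 0.03 and leaving out OCsCtr replicate 4 made it -0.39. The second ranged from -0.26 to 0.02 with 1 library left out and was positive without OCsCtr replicate 2, OCsCtr replicate 3 or OCsEoS replicate 1. The order of both classes thus rested on single libraries. Over all 10 members, 9 had a positive log2 fold change in OCsEo and 7 in OCsEoS, beside 6717 and 6755 of the 13681 tested genes.

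Levels between genes were compared per length, as CPM per kilobase of gene length. In OCsCtr the order was Cd14 (72.7 ± 2.54), Tlr2 (20.2 ± 1.49), Ly96 (13.5 ± 2.1), Tlr4 (9.25 ± 0.602), Tlr13 (7.07 ± 1.61), Tlr7 (4.73 ± 1.03), Tlr6 (3.21 ± 0.163), Tlr1 (2.22 ± 0.189), Tlr8 (1.7 ± 0.776) and Tlr9 (0.614 ± 0.315 CPM per kilobase, SD, n = 4 each). The neighbours Tlr4 and Tlr13, Tlr13 and Tlr7, and Tlr1 and Tlr8 overlapped between libraries, and the other neighbours in this order did not. In OCsEo the order of the means was the same, with Ly96 (11.7 ± 2.62), Tlr4 (10.8 ± 1.123) and Tlr13 (10.7 ± 1.51 CPM per kilobase) close together and overlapping. In OCsEoS, Tlr13 (10.5 ± 1.25) stood before Tlr4 (10.2 ± 0.577 CPM per kilobase), again within the spread of the libraries. Cd14 was 3.6 times as high as Tlr2, the next gene, in OCsCtr, 4.91 times in OCsEo and 5.06 times in OCsEoS.

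**Figure D3:**
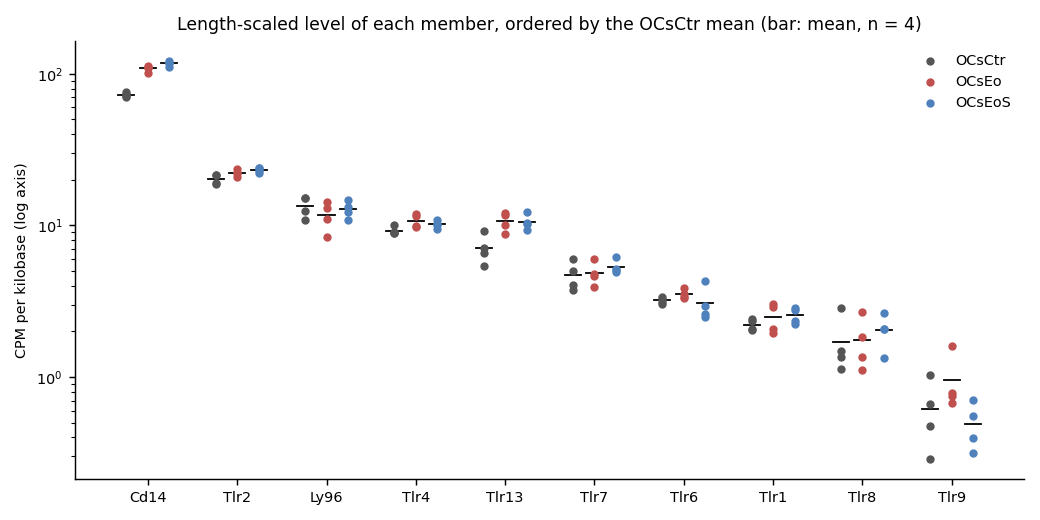
Length-scaled level (CPM per kilobase, log axis) of each member in every library, ordered by the OCsCtr mean, with group means as bars (n = 4 per group). Cd14 lies above all other members in each library and Tlr9 has the lowest group means, from 0.492 to 0.953.

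Summed over the 4 receptors of a class, the surface receptors gave 34.9 ± 2.12 CPM per kilobase in OCsCtr, 39.0 ± 2.38 in OCsEo and 38.9 ± 2.25 in OCsEoS (SD, n = 4 each). The endosomal receptors gave 14.1 ± 3.53, 18.2 ± 3.18 and 18.4 ± 2.25 CPM per kilobase. The endosomal share of both sums was 25.0% to 33.9% in the OCsCtr libraries, 27.4% to 34.8% in OCsEo and 30.1% to 34.1% in OCsEoS. The 3 ranges overlapped.

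Ratios of 2 genes within a library do not depend on how libraries are scaled. They were formed after the values were seen and are given with no test. The ratio of Tlr13 to Tlr7, in counts per kilobase, was 1.4, 1.43, 1.62 and 1.53 in OCsCtr, 2.46, 2.17, 2.23 and 2.01 in OCsEo, and 1.98, 2.07, 1.81 and 2.03 in OCsEoS. On this ratio no stimulated library overlapped with OCsCtr, although Tlr13 itself did in OCsEo. The high OCsCtr replicate 4, which was also the highest of its group for Tlr7, had an ordinary ratio. The ratio of Cd14 to Tlr4 was 7.71, 8.34, 8.01 and 7.46 in OCsCtr, 9.24, 10.3, 11.5 and 9.76 in OCsEo, and 11.2, 11.6, 11.7 and 11.5 in OCsEoS, again with no overlap between OCsCtr and the stimulated groups. By contrast, the ratio of Tlr2 to Tlr1 averaged 9.1 ± 0.236, 9.21 ± 1.7 and 9.14 ± 0.838 in OCsCtr, OCsEo and OCsEoS (SD, n = 4 each).

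**Figure D4:**
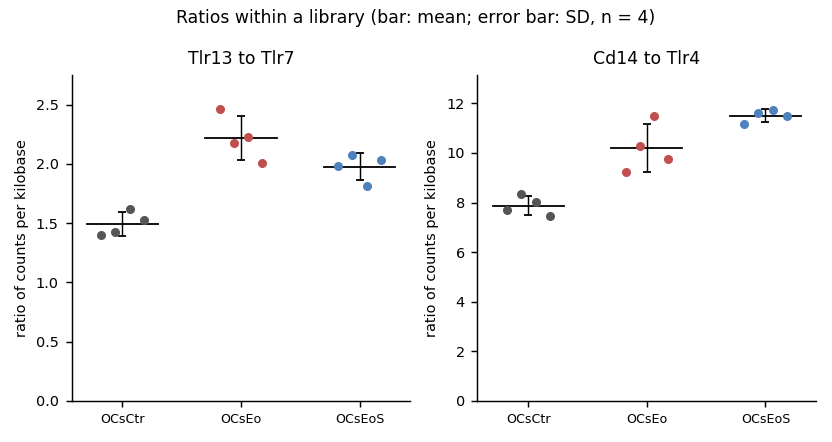
Ratio of Tlr13 to Tlr7 and of Cd14 to Tlr4 within each library (counts per kilobase, axes from 0), with the mean as a bar and the SD as an error bar (n = 4 per group). The OCsCtr libraries reach 1.62 and 8.34, below all stimulated libraries, which start at 1.81 and 9.24.

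Single libraries moved many members together. Replicate 4 was the highest OCsCtr library for 9 of the 10 members, the exception being Tlr1. In OCsEo, replicate 4 was the highest for 8 members, and in OCsEoS replicate 1 was the highest for 8. For Tlr8 the OCsCtr libraries had 4.06, 4.84, 5.3 and 10.2 CPM. The mRNA of Irf7, a transcription factor downstream of endosomal receptors, was also high in OCsCtr replicate 4, at 195 CPM beside 87.1 to 120 CPM in the other three, and in OCsEo replicate 4, at 217 CPM beside 92.4 to 135 CPM. In OCsEoS replicate 1, Irf7 was at 115 CPM, the lowest of its group. Over the 12 libraries, Pearson's r with Irf7 was highest for the surface receptor Tlr1 (0.69) and the endosomal receptor Tlr8 (0.68). It was 0.57 for each of Tlr2, Tlr7 and Tlr9, and 0.38 for Tlr13. The summed osteoclast markers of OCsCtr replicate 4 (34116 CPM) were the highest of that group and those of OCsEo replicate 4 (22929 CPM) were the highest of theirs. The summed monocyte/macrophage markers were also the highest in these libraries, at 7074 CPM beside 6433 to 6512 CPM in the other OCsCtr libraries and at 8126 CPM beside 6563 to 6869 CPM in the other OCsEo libraries. In OCsEoS replicate 1 the osteoclast sum was 17528 CPM and the monocyte/macrophage sum 7212 CPM, neither the highest of its group. The part of these library differences in the results was not tested beyond leaving out each library.

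Markers of the cells in the culture moved with the stimulations and stand here beside the called members. Of the 9 osteoclast markers, 8 had a call for a lower level in OCsEo, and 8 did in OCsEoS (background 2.61% and 4.11% called lower), the exception in both being Dcstamp. Itgb3, an integrin of the osteoclast surface, fell by 0.99 in OCsEo and by 0.91 in OCsEoS on the log2 scale (edgeR adjusted p = 1e-06 and 3.9e-06). The summed markers ranged from 27969 to 34116 CPM in OCsCtr, from 17799 to 22929 CPM in OCsEo and from 14669 to 21822 CPM in OCsEoS, with 0 of the 9 markers absent. Of the monocyte/macrophage markers, C5ar1 was called higher in both stimulations, Adgre1 higher in OCsEoS and Csf1r lower in OCsEoS. The summed level of this list was 6433 to 7074, 6563 to 8126 and 6108 to 7238 CPM. The part of the cell mixture in the Cd14 and Tlr13 values was not tested.

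RNA of the added eosinophils was traced by 10 markers. Alox15 had 0.104 to 0.653 CPM in OCsCtr, 6.24 to 16.7 CPM in OCsEo and 0.178 to 1.13 CPM in OCsEoS, and Siglecf had 0.218 to 0.653, 2.53 to 3.28 and 0.237 to 1.3 CPM. Both were called higher in OCsEo and not in OCsEoS. Prg2, a granule protein gene, was called lower in OCsEoS, at -2.74 (edgeR adjusted p = 0.0014). Epx, the eosinophil peroxidase gene, was at most 0.478 CPM in any library, and Epx, Prg3, Ear1 and Ear6 were at 0 in all 4 OCsEoS libraries. The summed 10 markers, which Ccr3 dominated in all groups, were 57.1 to 73.7 CPM in OCsCtr, 60.1 to 82.2 CPM in OCsEo and 49.3 to 55.5 CPM in OCsEoS. Ccr3 alone stood at 51.3 to 65.6, 45.7 to 53.2 and 47.3 to 53.0 CPM. The part of eosinophil RNA in the Cd14 and Tlr13 values was not tested. Of 10 neutrophil markers, 2 were called higher in OCsEo (Elane and Camp) and 0 in OCsEoS by edgeR and by DESeq2, with 4 at an unadjusted p under 0.05 in OCsEoS. Their sum was 314 to 457 CPM in OCsCtr, 457 to 611 CPM in OCsEo and 358 to 427 CPM in OCsEoS. Of the 6 B cell markers 0 were called by edgeR in either comparison, with 2 at an unadjusted p under 0.05 in OCsEo and 0 in OCsEoS, while DESeq2 on OCsEo and OCsCtr alone called 1. Of the 5 conventional dendritic cell markers, Zbtb46 was called lower in OCsEo, while 4 of the 5 had a log2 fold change above 0 there (list median 0.66). Their sum was 10.5 to 14.1 CPM in OCsCtr and 12.1 to 13.3 CPM in OCsEo. Of the 4 tested plasmacytoid dendritic cell markers 0 were called by edgeR or DESeq2 in either comparison, with 0 at an unadjusted p under 0.05.

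The Toll-like receptor genes outside the members were scarce. Tlr3, the endosomal receptor for double-stranded RNA, had 2.36, 1.78, 2.24 and 1.68 CPM in OCsCtr and 3.88, 3.56, 4.26 and 4.61 CPM in OCsEo. All OCsEo libraries were above OCsCtr, as for 10.5% of all tested genes, with a log2 fold change of 1.02 (SE 0.265, adjusted p = 0.011 by edgeR). In OCsEoS Tlr3 had 4.02, 1.71, 2.73 and 3.03 CPM and a log2 fold change of 0.51 (95% interval -0.05 to 1.07, adjusted p = 0.19 by edgeR). The difference between the stimulated groups, -0.51 (95% interval -1.05 to 0.04), was not resolved, so Tlr3 is not shown to differ between them. Tlr5 had at most 1.73 CPM in any library, Tlr11 at most 0.641 CPM, and Tlr12, with at most 29 counts in a library, did not pass the filter on low counts. Where 0 counts were found, up to 3 counts, 0.0744 to 0.108 CPM depending on the library, cannot be set apart from 0, and these limits cover counting error only.

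The genes around the receptors were taken as 9 lists with 95 genes in all, of which 87 were tested. In OCsEo, 12 were called higher and 2 lower, and in OCsEoS 9 higher and 3 lower, with background shares of 3.27% and 2.61%, and of 3.63% and 4.11%. Among the accessory receptors, Cd36, a scavenger receptor that presents lipids to the Tlr2-Tlr6 pair, rose from 59.5 ± 0.537 CPM in OCsCtr to 173 ± 11.8 CPM in OCsEo and 187 ± 19.4 CPM in OCsEoS (SD, n = 4 each). Its log2 fold changes were 1.54 and 1.66 (edgeR adjusted p = 9.5e-11 and 2.6e-11), larger than those of any member. Cd180 and Ly86, which form a complex related to Tlr4 and Ly96, were not called: 0.20 (95% interval 0.02 to 0.38) and -0.06 (95% interval -0.24 to 0.12) for Cd180, and 0.28 (95% interval -0.22 to 0.78) and 0.47 (95% interval -0.03 to 0.97) for Ly86. Lbp, which carries lipopolysaccharide to Cd14, did not pass the filter.

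The chaperones and transporters that bring the receptors to their place were near their OCsCtr level. Of 9 genes, 0 were called in either comparison by edgeR or DESeq2, with 4 at an unadjusted p under 0.05 in each. Unc93b1, which escorts the endosomal receptors from the endoplasmic reticulum, averaged 180 ± 12.1 CPM in OCsCtr, 205 ± 19 CPM in OCsEo and 182 ± 12.8 CPM in OCsEoS (SD, n = 4 each). Its log2 fold changes were 0.19 (95% interval 0.04 to 0.34) and 0.02 (95% interval -0.13 to 0.17). The list's median log2 fold change was 0.01 in OCsEo and 0.02 in OCsEoS.

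The endosomal proteases and nucleases, which cleave the receptors and their ligands, had more calls. In OCsEo 3 of 9 were called higher and in OCsEoS 2 of 9, with 0 lower in both, and the list's medians were 0.42 and 0.17. Ctsl rose from 954 ± 120.1 CPM in OCsCtr to 1946 ± 187 CPM in OCsEo and 1622 ± 181 CPM in OCsEoS (SD, n = 4 each), log2 fold changes of 1.03 and 0.77 (edgeR adjusted p = 3.7e-07 and 9.9e-06). Ctss rose by 0.78 in OCsEo (edgeR adjusted p = 6.7e-06) and by 0.54 in OCsEoS (edgeR adjusted p = 0.00022). The latter was 0.48 to 0.499 when OCsCtr replicate 1, OCsCtr replicate 2 or OCsEoS replicate 1 was left out, and 0.41 after the length trend was taken out. Ctsb rose by 0.65 in OCsEo (edgeR adjusted p = 3.3e-06) and had 0.17 in OCsEoS (95% interval 0.02 to 0.31). In OCsEoS against OCsEo, Pld3, a nuclease of the endolysosome, was called lower, at -0.52 (SE 0.0803, edgeR adjusted p = 0.0025). Without OCsEo replicate 4, OCsEoS replicate 3 or OCsEoS replicate 4 the size of the Pld3 difference was below 0.5.

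Of the 6 adaptors, Ticam2 (TRAM), which links Tlr4 to the TRIF branch, was called higher in both stimulations, at 0.95 (edgeR adjusted p = 0.023) and 0.86 (edgeR adjusted p = 0.032), from 1.66 ± 0.486 CPM in OCsCtr. With this low level, the call was lost in OCsEo without OCsCtr replicates 1, 3 or 4 or OCsEo replicate 2, and in OCsEoS without OCsCtr replicates 1, 3 or 4 or OCsEoS replicate 2 (edgeR adjusted p up to 0.085 and 0.096). In OCsEoS it was also lost without the filter on low counts (edgeR adjusted p = 0.053). Myd88, the adaptor shared by nearly all members, averaged 82.4 ± 3.02 CPM in OCsCtr and had log2 fold changes of 0.08 (95% interval -0.07 to 0.22) and 0.20 (95% interval 0.06 to 0.35), neither called. The adaptor list had median log2 fold changes of -0.37 in OCsEo and -0.33 in OCsEoS. In each comparison 2 of the 6 adaptors were above 0, 0 were called lower, and 4 had an unadjusted p under 0.05 by edgeR.

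Of the 22 kinases and ubiquitin ligases, 1 was called higher and 1 lower in OCsEo, and 1 higher and 2 lower in OCsEoS. Traf6, the ubiquitin ligase that acts below both the receptors and RANK, fell from 85.6 ± 3.61 CPM in OCsCtr to 51.6 ± 1.61 CPM in OCsEo and 54.2 ± 3.63 CPM in OCsEoS (SD, n = 4 each), log2 fold changes of -0.73 and -0.66 (edgeR adjusted p = 8.4e-07 and 3.9e-06). Ikbke rose by 0.76 and 0.75 (edgeR adjusted p = 0.0039 and 0.0034). Tab1 was called lower in OCsEoS, at -0.51 (edgeR adjusted p = 0.015), and lost the call without OCsCtr replicate 4, OCsEoS replicate 2 or OCsEoS replicate 3 (-0.40 at the smallest size). Irak4, the kinase that Myd88 recruits, had -0.43 (95% interval -0.67 to -0.20) and -0.27 (95% interval -0.50 to -0.03) and did not pass the fold threshold.

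Of the 9 transcription factors, Rel, the c-Rel subunit of NF-κB, was called lower in both stimulations, at -0.61 (edgeR adjusted p = 0.00094) and -0.50 (edgeR adjusted p = 0.0028). The second value sits at the fold threshold and crossed it without OCsCtr replicate 4, OCsEoS replicate 1 or OCsEoS replicate 3 (-0.45 at the smallest size), and also under 5 other settings (-0.39 after the length trend was taken out). Of the 13 negative regulators, 3 were called higher in OCsEo (Il1rl1, Atf3 and Socs1) and 2 in OCsEoS (Socs1 and Atf3), with 0 lower. Atf3, which restrains cytokine genes, rose by 0.91 in OCsEo (edgeR adjusted p = 0.0011) and by 0.61 in OCsEoS (edgeR adjusted p = 0.015), the latter with an adjusted p of up to 0.058 when OCsCtr replicate 2 or OCsEoS replicate 1 was left out. Il1rl1, at 0.496 ± 0.295 CPM in OCsCtr, had 1.66 in OCsEo (edgeR adjusted p = 0.031), and Socs1, at 2.83 ± 0.345 CPM, had 0.69 and 0.71 (edgeR adjusted p = 0.043 and 0.031). These low genes lost their calls without any of several libraries: Il1rl1 without replicates 1, 2 or 3 of OCsCtr or of OCsEo (adjusted p up to 0.093), Socs1 in OCsEo without OCsCtr replicates 1, 2 or 3 or any OCsEo replicate (up to 0.10), and in OCsEoS without OCsCtr replicates 1, 2 or 3 or OCsEoS replicate 4 (up to 0.13). The Socs1 call in OCsEo was also lost with total counts, without the filter and after the length trend was taken out (edgeR adjusted p = 0.053, 0.064 and 0.087), and that in OCsEoS after the length trend was taken out (edgeR adjusted p = 0.080).

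The target genes that receptor signalling is known to induce were low for the most part. Of 19 genes, 13 were tested, and Il6, Il12b, Cxcl1, Cxcl2, Nos2 and Ifnb1 did not pass the filter, the last with 0 counts in all 12 libraries. In OCsEo 2 of the 13 were called higher and in OCsEoS 2, with 0 lower, and the list's medians were 0.29 and 0.54. Tnf averaged 1.07 ± 0.256 CPM in OCsCtr, 1.89 ± 0.446 CPM in OCsEo and 1.58 ± 0.957 CPM in OCsEoS and was not called. The chemokine gene Ccl3 rose from 3.51 ± 0.997 CPM to 8.5 ± 1.82 CPM in OCsEo (SD, n = 4), a log2 fold change of 1.28 (edgeR adjusted p = 0.00095), and was at 4.08 ± 1.13 CPM in OCsEoS. The difference of OCsEoS to OCsEo was -1.06 (edgeR adjusted p = 0.044), and its adjusted p rose to up to 0.15 with single libraries left out, losing the call without OCsCtr replicate 1, OCsEo replicates 1, 2 or 3, or OCsEoS replicates 3 or 4, and also with total counts (edgeR adjusted p = 0.052). Ccl4 was called in OCsEoS, at 1.02 (edgeR adjusted p = 0.0097). Cxcl10 had 0.62 in OCsEo and 0.59 in OCsEoS (edgeR adjusted p = 0.014 and 0.015), and the calls were lost without OCsCtr replicate 1 or OCsCtr replicate 2 (0.48 and 0.45 at the lowest).

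**Figure D5:**
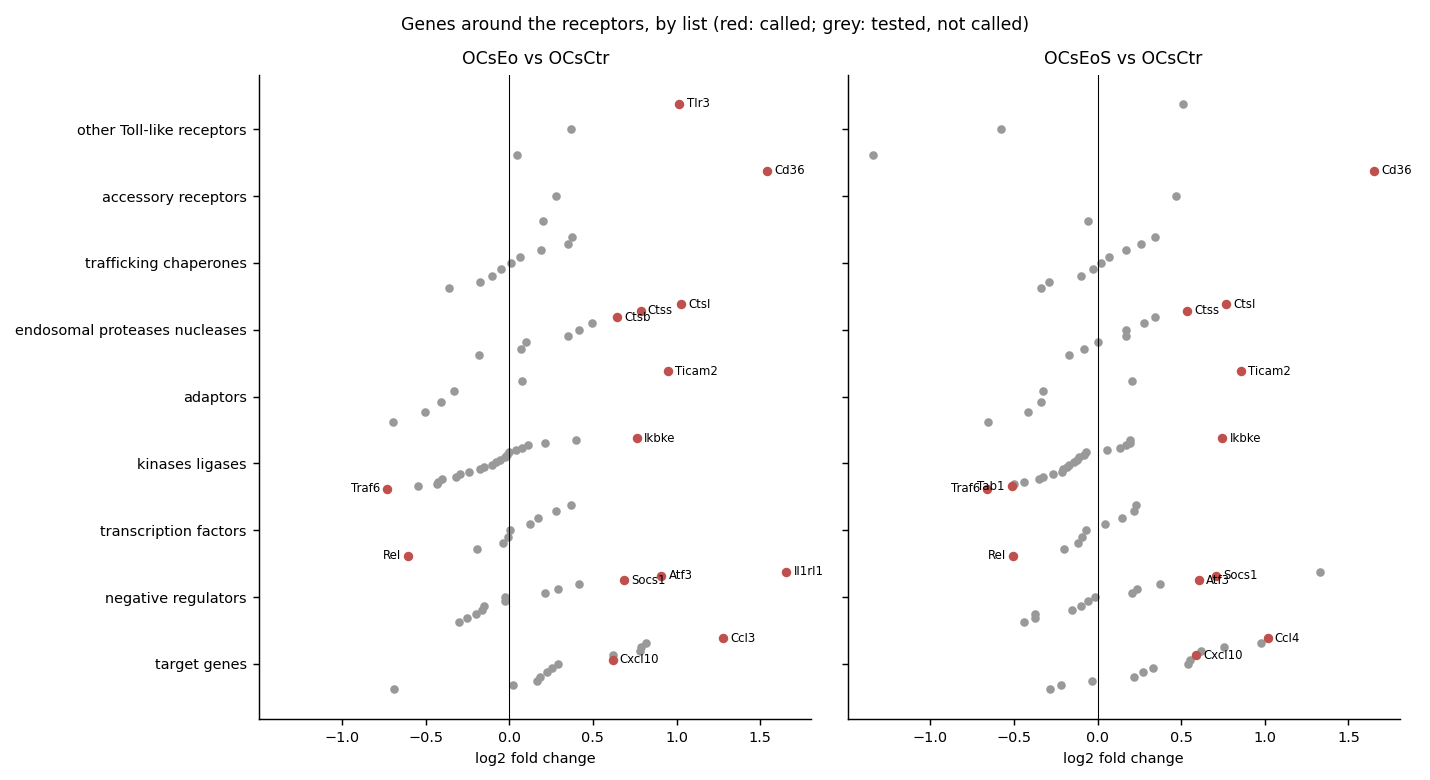
Log2 fold change (x axis) of the 87 tested genes around the receptors, by list, in the 2 comparisons with OCsCtr, each point a gene and called genes in red with their symbol. Cd36, at 1.54 and 1.66, and Ctsl, at 1.03 and 0.77, lie on the right in both, and Traf6, at -0.73 and -0.66, on the left.

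The genes whose pattern over the 12 libraries was most like that of a member were found by Pearson's r of log2 CPM over all tested genes, leaving the members out, as a description with no test. The 12 libraries share groups and depth, so group differences enter these values. For Cd14 they were Lgals1, Prdx4 and Alox5ap (r = 0.99 each), of which Lgals1 had log2 fold changes of 0.83 and 0.91 and Alox5ap of 0.90 and 0.96. For Tlr13 they were Stom, Xdh and B4galt6 (r = 0.96, 0.96 and 0.95), and for Tlr2 Ms4a6d, Ier3 and Dck (r = 0.96, 0.96 and 0.94). The values for Tlr4 were highest with Evl and Abcc3 (r = 0.94 and 0.91), for Tlr1 with Ddx28, Ifi27l2a and Atp5l2-ps (r = 0.93, 0.91 and 0.90) and for Tlr9 with Tapbp, Ube2l6 and Ifi204 (r = 0.93, 0.92 and 0.91). Tlr8 was closest to Trim14, Irgm2 and Il10ra (r = 0.91, 0.88 and 0.88), Tlr7 to Gm14295, Phf11d and Sdc3 (r = 0.89, 0.87 and 0.85), Tlr6 to Gm12418, Nlgn2 and Fzd7 (r = 0.89, 0.89 and 0.88) and Ly96 to Vldlr, Dcbld1 and Pyurf (r = 0.91, 0.89 and 0.88). Cd14 had the closest neighbours and Tlr7 and Tlr6 the most distant.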

How the data were processed

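Bulk RNA-seq. counts of 12 libraries were analysed, 4 labelled replicates per group. According to the study's methods and the submitters' processing notes, the authors cleaned the reads with fastp, aligned them with HISAT2 2.0.5 to GRCm38/mm10 and counted them per gene with featureCounts, and the deposited raw counts were used. Annotation release, strand and multimapping settings are not given in the sources used here. Replicates are described as biological, 4 per group, and all 18 within-group pairs differed by more than sampling noise.

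Genes were kept with filterByExpr (minimum count 10), leaving 13681. Libraries were scaled by TMM (factors 0.968 to 1.03). A fit of all 12 libraries in edgeR 4.0.16 (R 4.3.3) compared groups by the quasi-likelihood test, with Benjamini-Hochberg adjustment over all genes, standard errors and 95% intervals from the fit. A call needed an adjusted p under 0.05 and a log2 fold change over 0.5 in size, the study's cut-offs. CPM are TMM-scaled, and correlations used log2 CPM with a prior count of 2. Alternatives used DESeq2 1.42.0 and other scalings, filters and libraries. The code was tested on simulated data. The members and lists were chosen with earlier results of these data known. The text names all 10 members, the 4 other Toll-like receptor genes, up to 3 called genes per list, direction and comparison with the largest change, 6 further genes fixed by name, markers, and the 3 genes most like each member, of which some genes are not reported here. Genes named beyond this rule (Tnf, Irf7, and Lgals1 and Alox5ap with fold changes) were chosen after their values were seen. Genes of the lists that did not pass the filter on low counts were named too. Same-numbered libraries of different groups were not treated as paired in the main fit. Their deviations from the group means had correlations of -0.0435 to 0.0944, and a fit with a replicate block is given below. Gene coordinates of the members are those of the deposited counts and equal GENCODE vM21 (GRCm38) for 9 of the 10 members. The exception was Cd14, which spans chr18:36725067-36726798 in GENCODE. Transcripts come from GENCODE vM21, in which 47224 of the 47643 gene identifiers (99.1%) were found. Per kilobase levels use the gene lengths of the deposited table, which differed from the GENCODE exon lengths for Tlr13 and Cd14.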

Additional observations from a re-analysis of the deposited data

Results flagged for a closer look

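In groups of 4 libraries, a library was set apart when its gap to the nearest other was a larger share of the group's range than Dixon's 95% critical value, which happens by chance in about 1 of 20 groups. Over the 14 Toll-like receptor and co-receptor genes and 3 groups, 42 in all, 2 libraries met it. Tlr7 was at 25.3 CPM in OCsEoS replicate 1, beside 20.1 to 20.96 CPM in the other OCsEoS libraries (gap of 0.839 of the range). Tlr9 was at 5.54 CPM in OCsEo replicate 4, beside 2.36 to 2.74 CPM in the other OCsEo libraries (gap of 0.881 of the range). The cause of either was not tested.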

How the results depend on the processing

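The calls of Cd14 and Tlr13 held in all 10 fits with another tool, scaling, filter, design or replicate block, except Cd14 in OCsEo after the length trend was taken out, where 1 member instead of 2 was called. With a threshold of 1 on the log2 fold change, 0 members were called in both comparisons, and with no threshold 2. Leaving out 1 library gave 1 to 2 members called in each comparison with OCsCtr, the lower value without OCsCtr replicate 2, and 0 in OCsEoS against OCsEo. Under the replicate block, 2, 2 and 0 members were called in the 3 comparisons, and the block changed no call of a member, while it ended the call of Il1rl1 in OCsEo (edgeR adjusted p = 0.063). No member changed direction under the other fits. With 1 library left out, the sign turned for values not called: Tlr1 in OCsEoS against OCsEo (-0.0714 to 0.14), Tlr13 there (-0.10 to 0.0433), Ly96 there (-0.0026 to 0.24), Tlr6 (-0.25 to 0.0366), Tlr9 (-0.56 to 0.0433) and Ly96 (-0.15 to 0.0086) in OCsEoS, and Tlr7 (-0.0859 to 0.17) and Tlr8 (-0.25 to 0.40) in OCsEo. Unc93b1 in OCsEoS was -0.0084 after the length trend was taken out and -0.022 to 0.0534 with 1 library left out, and Cd180 there -0.11 to 0.0075. Of the 87 pathway genes, 2 were called in OCsEoS against OCsEo, 4 with DESeq2 on all libraries, 4 without the filter, 1 with total counts, and 0 to 3 with 1 library left out (0 without OCsEoS replicate 3 or 4, 1 without OCsCtr replicate 1, OCsEo replicate 2 or OCsEo replicate 4). Pathway calls numbered 10 to 16 in OCsEo and 9 to 13 in OCsEoS with 1 library left out. The causes were not tested. Whether the replicate numbers pair the libraries was not settled. Of 12 same-numbered pairs, 0 correlated over 0.1, while 8 of 12 were closest to their own number. With 4 libraries per group, the low counts of Tlr8 and Tlr9 limit what could be detected.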
